A study of Mus musculus with 6 samples.

Results

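Mitochondrial iron import and iron-sulfur assembly were followed through 8 nuclear genes, chosen by name for their roles, with earlier results of these data known. They are Slc25a37, Slc25a28, Slc25a38, Abcb10, Abcb6, Tmem14c, Iscu and Glrx5, and all 8 were listed in each of the 6 libraries, among 17060 genes listed in at least 1 library. All 8 also passed the filter on low counts, which left 12306 genes to test. RNA was measured in lineage-negative BM cells of wild-type mice, a fraction that holds hematopoietic stem and progenitor cells, after culture in the EPO induction system. EPO is the hormone that drives erythroid progenitors to multiply and mature. The 3 DMSO samples received vehicle for 48 hours and the 3 NUP-17d samples received NUP-17d for 48 hours. NUP-17d is a small molecule made to inhibit Plek2, a membrane-associated protein downstream of JAK2/STAT5, and the study describes it as a mixture of stereoisomers. The labels give the strain and age of the mice for neither group, and they do not say whether the 3 samples of a group came from separate mice or cultures, so the p-values measure the spread between these samples, which may be technical.

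Heme and iron-sulfur clusters are both finished in the mitochondrial matrix, and both need iron that has crossed the inner membrane. Slc25a37 (mitoferrin-1) and Slc25a28 (mitoferrin-2) are the inner membrane iron carriers, the former the main one of erythroid cells and the latter present in most cell types. Slc25a38 brings in glycine for Alas2, the first enzyme of erythroid heme synthesis. Abcb10 is an inner membrane ABC transporter that binds Slc25a37 and steadies it, Abcb6 is an ABC transporter linked to porphyrins, and Tmem14c is an inner membrane protein needed to move protoporphyrinogen IX into the matrix. Iscu is the scaffold on which new iron-sulfur clusters are built, and Glrx5 is a monothiol glutaredoxin that passes clusters from the scaffold to later carriers.

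The libraries held 20278433 to 20419018 expected counts with DMSO and 20076409 to 20170197 with NUP-17d, expected counts being estimated reads per gene, which can take part values. All counts of the 8 genes were whole. The hemoglobin genes took 18.3% to 20.3% of the counts with DMSO and 11.8% to 13.1% with NUP-17d, and the 8 genes together took 0.311% to 0.316% and 0.237% to 0.239%. Libraries were therefore scaled by TMM, which sets the sizes of the libraries by the bulk of the genes, with factors of 0.887 to 0.930 for DMSO and 1.08 to 1.11 for NUP-17d. Scaling by library totals alone moved the median log2 fold change of all genes from 0.014 to 0.28, a shift of 0.27, and this shift carries through to every gene below. The 10 erythroid markers looked at, such as Slc4a1, were abundant in all libraries. Those of granulocytes were also present, with Mpo at 1756 and 1781 TMM-normalized CPM (counts scaled to a common library size) with DMSO and NUP-17d. The libraries labelled as erythroblasts thus also held RNA of granulocyte marker genes, and which cells it came from was not tested.

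With TMM, 7 of the 8 genes were lower with NUP-17d at an adjusted p under 0.05 in edgeR's quasi-likelihood test, and 0 were higher. Of all genes tested, 35.3% passed in either direction, 18.9% lower and 16.4% higher. The one that did not pass was Slc25a28. The median log2 fold change of the 8 genes was -0.34, beside 0.014 for all genes tested. In the same 7 genes every NUP-17d library lay under every DMSO library, a separation found in the lower direction for 23.2% of all genes and in either direction for 46.0%. Scaled by library totals alone, 4 of the 8 were lower (Slc25a37, Abcb10, Iscu and Slc25a38) and 2 were higher (Slc25a28 and Tmem14c), where 74.1% of all genes passed, 5.34% lower and 68.7% higher. Under that scaling the median of the 8 was -0.068 and that of all genes 0.28. DESeq2 with its own size factors called the same 7 genes lower and 0 higher, where it called 25.6% of all genes, 15.3% lower and 10.4% higher. limma on log2(FPKM + 1), which inherits the scaling by totals, called 4 lower and 2 higher, where it called 80.6% of all genes, 5.68% lower and 74.9% higher.

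**Figure D1:**
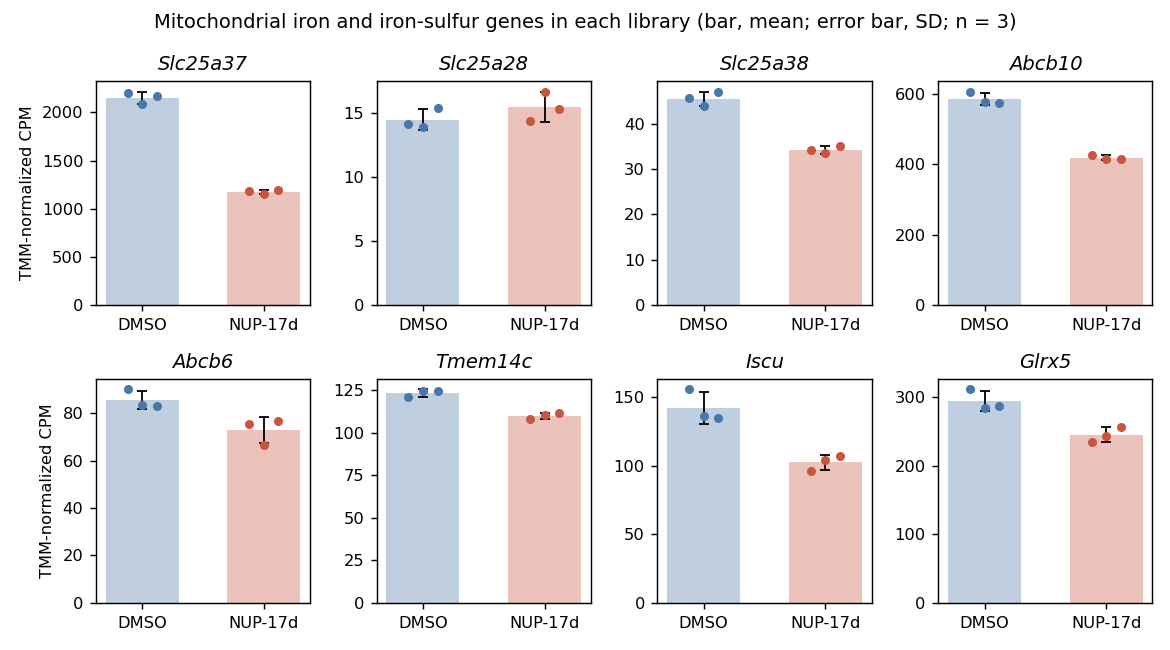
TMM-normalized CPM (vertical axes, each from 0 and on its own scale) of the 8 genes in the 3 DMSO and 3 NUP-17d libraries, with points for libraries, bars for means and error bars for the SD. The NUP-17d points lie under the DMSO points in 7 panels, widest apart for Slc25a37 (means 2153 and 1175), and the points of Slc25a28 overlap between the groups.

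The iron carriers came first, and the pair moved apart. Slc25a37 (Entrez 67712, chr14:69241848-69285544 in GRCm38) stood at 2201, 2083 and 2174 TMM-normalized CPM in DMSO libraries 1, 2 and 3 and at 1182, 1149 and 1195 in NUP-17d libraries 1, 2 and 3. The groups were far from overlapping, and the spread within each was under 3% of its mean. The mean fell from 2153 ± 61.8 to 1175 ± 23.7 CPM (SD, n = 3), a log2 fold change of -0.87 (SE 0.036, edgeR adjusted p = 3.27e-16). This is 54.6% of the DMSO level, with a 95% interval of 51.8% to 57.5%. Of the 12306 genes tested 133 had a lower log2 fold change. Scaled by library totals the gene was still lower, at a log2 fold change of -0.61 (adjusted p = 2.95e-15). Slc25a37 made up 62.1% to 63.2% of the counts of the 8 genes with DMSO and 53.8% to 54.4% with NUP-17d.

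Slc25a28 (Entrez 246696, chr19:43663801-43675006) had the fewest counts of the 8 genes, with 255 to 286 counts in a DMSO library and 317 to 371 in a NUP-17d library. Its normalized values were 14.1, 13.9 and 15.4 CPM with DMSO and 14.3, 16.6 and 15.3 CPM with NUP-17d, and the groups overlapped. The log2 fold change was 0.095 (SE 0.075, edgeR adjusted p = 0.342), with a 95% interval of -0.058 to 0.25, which is 96.1% to 119% of the DMSO level. Scaled by library totals the gene was higher, at 0.36 (adjusted p = 0.000248), above the 0.28 of the median gene. A promoter sequence was at hand for 6 of the 8 genes, from RefSeq on GRCm38.p6, the build that the submitters name as mm10. None was at hand for Slc25a37 and Iscu, so these genes were not searched. Each spans 250 bases before and 50 after the start of transcription. The letters GATAA and GATAG after an A or a T, which GATA factors such as the erythroid regulator Gata1 can bind, were searched on both strands. They occurred in 29.8% of 32851 promoters and in 1 of the 6, that of Slc25a28, at 112 bases before the start. The 30 bases around this match are shown because it is the only GATA match among the 6, with the match in capitals as read on the gene's own strand (chr19:43674976-43675005, minus strand).
Slc25a28: actaatgacaagCTATCTgacgaataacac

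Inside each library, FPKM values, which divide counts by transcript length, put Slc25a37 at 56.7, 55.8 and 51.6 times Slc25a28 with DMSO and at 30.6, 25.7 and 29.0 times with NUP-17d. The ratio went from 54.7 ± 2.73 to 28.4 ± 2.53 (SD, n = 3), with no overlap between the groups. Such a ratio is the same under any scaling of the libraries. The log2 ratio differed by -0.95 (2-sided exact permutation test, p = 0.1, the smallest that 3 against 3 can give, and 0.1 after adjustment over 4 ratios).

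The glycine carrier Slc25a38 (Entrez 208638, chr9:120110377-120126093) stood at 45.6, 43.8 and 47.0 CPM with DMSO and at 34.2, 33.4 and 35.2 CPM with NUP-17d. The lowest DMSO library was above the highest NUP-17d library. The log2 fold change was -0.41 (SE 0.048, edgeR adjusted p = 1.13e-07), or 75.4% of the DMSO level with a 95% interval of 70.4% to 80.7%. By library totals the fall was smaller, -0.14 (adjusted p = 0.0179). Its promoter window held the letters GCTATGTCA, a match to the reverse of TGACNNNGC (the core of sites that Nrf2-type factors can bind, in 12.4% of promoters), at 55 bases before the start.

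Among the 3 other membrane proteins, Abcb10, Abcb6 and Tmem14c, Abcb10 was lowered most. Abcb10 (Entrez 56199, chr8:123952459-123983122) measured 606, 578 and 574 CPM with DMSO and 427, 414 and 416 CPM with NUP-17d. Both groups were tight and well apart. The mean went from 586 ± 17.5 to 419 ± 7.23 CPM (SD, n = 3), a log2 fold change of -0.48 (SE 0.035, edgeR adjusted p = 1.17e-11), or 71.5% of the DMSO level (95% interval, 68.1% to 75.2%). By library totals it was -0.22 (adjusted p = 1.67e-06).

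Abcb6 (Entrez 74104, chr1:75171640-75180392) measured 90.0, 83.6 and 82.9 CPM with DMSO and 75.3, 66.8 and 76.7 CPM with NUP-17d. The groups did not overlap, and they came nearest between NUP-17d library 3 and DMSO library 3. The log2 fold change was -0.23 (SE 0.048, edgeR adjusted p = 0.000401), or 85.3% of the DMSO level, and by library totals it turned to 0.038 (adjusted p = 0.474). The ratio of Abcb10 to Abcb6 in FPKM was 4.72, 4.84 and 4.86 with DMSO and 3.98, 4.35 and 3.80 with NUP-17d, a log2 difference of -0.25 with no overlap (2-sided exact permutation test, p = 0.1, adjusted 0.1). Abcb10 thus fell relative to Abcb6 in these libraries under any scaling, at the limit of what 3 against 3 can test.

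Tmem14c (Entrez 66154, chr13:41016250-41022582) changed least among the 7 lower genes. It measured 121, 124 and 124 CPM with DMSO and 108, 110 and 111 CPM with NUP-17d, and its spread within a group was the smallest of the 8, at 1.79% and 1.66% of the mean. The groups were apart, and the log2 fold change was -0.17 (SE 0.036, edgeR adjusted p = 0.000699), or 89.2% of the DMSO level. By library totals the gene was instead higher, at 0.10 (adjusted p = 0.0292).

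The 250 bases before the start of both ABC transporter genes are shown because the pair encodes related transporters that were lowered to different extents. Capitals mark matches to CCNCNCCC, which Klf-type factors such as the erythroid Klf1 can bind and which occurred in 49.5% of promoters, and to CCAAT, the letters bound by NF-Y, in 37.4% of promoters, each searched on both strands, and matches to CCNCNCCC may overlap each other. The sequences are those of chr8:123983123-123983372 and chr1:75180393-75180642, both on the minus strand.
Abcb10: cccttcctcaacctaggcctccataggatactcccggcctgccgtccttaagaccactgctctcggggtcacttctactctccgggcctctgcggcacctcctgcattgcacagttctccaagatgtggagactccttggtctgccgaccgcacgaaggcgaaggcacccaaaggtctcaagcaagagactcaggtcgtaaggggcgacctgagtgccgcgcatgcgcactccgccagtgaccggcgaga
Abcb6: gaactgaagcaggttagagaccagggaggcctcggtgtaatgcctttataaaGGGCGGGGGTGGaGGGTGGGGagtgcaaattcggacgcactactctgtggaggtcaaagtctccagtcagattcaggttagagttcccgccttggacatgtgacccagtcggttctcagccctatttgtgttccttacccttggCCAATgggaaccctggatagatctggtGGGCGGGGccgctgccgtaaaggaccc

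The Abcb6 window held 4 CCNCNCCC matches and 1 CCAAT match, and the Abcb10 window held 0 matches to any of the motifs searched. Among the 6 promoters, CCNCNCCC was found in 4 (Slc25a28, Slc25a38, Abcb6 and Tmem14c) and CCAAT in 4 (Slc25a28, Abcb6, Tmem14c and Glrx5). Both counts describe letters in these windows and say nothing of which factor is bound.

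In the iron-sulfur arm, the scaffold Iscu fell further than Glrx5. Iscu (Entrez 66383, chr5:113772418-113778288) measured 156, 136 and 135 CPM with DMSO and 96.0, 104 and 107 CPM with NUP-17d. It had the widest spread of the 8 genes with DMSO, 8.15% of the mean, with library 1 highest, and the groups still did not overlap. The mean went from 142 ± 11.6 to 102 ± 5.70 CPM (SD, n = 3), a log2 fold change of -0.47 (SE 0.048, edgeR adjusted p = 9.66e-09), or 72.0% of the DMSO level (95% interval, 67.3% to 77.1%). By library totals it was -0.21 (adjusted p = 0.00033).

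Glrx5 (Entrez 73046, chr12:105032618-105040911) measured 311, 284 and 287 CPM with DMSO and 235, 243 and 257 CPM with NUP-17d. The groups did not overlap, and the log2 fold change was -0.26 (SE 0.040, edgeR adjusted p = 6.88e-06), or 83.3% of the DMSO level. By library totals it was 0.0041 (adjusted p = 0.922), so the direction of this gene rests on the scaling. The ratio of Iscu to Glrx5 in FPKM was 0.567, 0.545 and 0.533 with DMSO and 0.463, 0.487 and 0.472 with NUP-17d. The log2 ratio was lower by -0.21 with no overlap between the groups (2-sided exact permutation test, p = 0.1, adjusted 0.1). The 250 bases before the start of Glrx5 (chr12:105032368-105032617, plus strand) are shown for their 4 CCAAT matches, in capitals on either strand, the last of them ending at the start site. At least 4 matches were found in 1.06% of all promoters.
Glrx5: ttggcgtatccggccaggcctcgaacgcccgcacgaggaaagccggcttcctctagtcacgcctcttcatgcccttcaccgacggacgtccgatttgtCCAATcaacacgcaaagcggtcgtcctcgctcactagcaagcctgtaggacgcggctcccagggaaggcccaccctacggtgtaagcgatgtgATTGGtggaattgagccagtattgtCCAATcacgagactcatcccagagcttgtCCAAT

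The 8 genes therefore did not shift as a block. For each of their 28 pairs the ratio of the members of the pair was taken inside every library, and 22 of the ratios (78.6%) did not overlap between the groups, beside 44.1% of all 75712665 pairs of tested genes. Slc25a37 separated from the other 7 genes, and Slc25a28 did so too, at the opposite end. The 6 pairs that overlapped were Abcb10 with Iscu, Abcb10 with Slc25a38, Iscu with Slc25a38, Glrx5 with Abcb6, Glrx5 with Tmem14c, and Abcb6 with Tmem14c. By log2 fold change with TMM the order from lowest to highest was Slc25a37, Abcb10, Iscu, Slc25a38, Glrx5, Abcb6, Tmem14c and Slc25a28. The last of these was not lower. The exact permutation test gave at smallest p = 0.1, and 0.127 after adjustment over the 28 pairs. It cannot go lower with 3 against 3, so no step in this order was established by a test. Against Abcb10, its partner in the inner membrane, Slc25a37 stood at 3.77, 3.75 and 3.94 times the FPKM level with DMSO and at 2.87, 2.88 and 2.99 times with NUP-17d, a log2 difference of -0.39 without overlap.

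**Figure D2:**
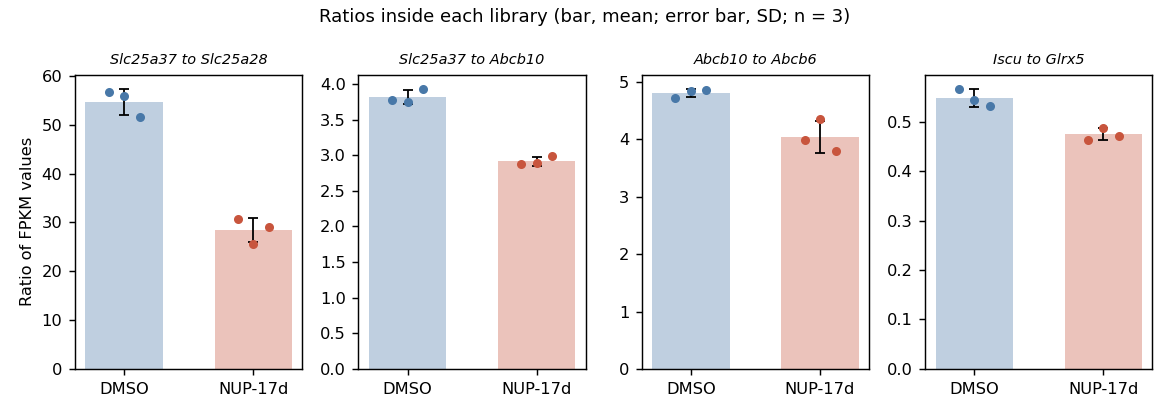
Ratios of FPKM values inside each library (vertical axes, from 0) for 4 pairs of genes, with points for libraries, bars for means and error bars for the SD (n = 3). In each panel the 3 NUP-17d ratios lie under the 3 DMSO ratios, furthest for Slc25a37 to Slc25a28 (54.7 and 28.4).

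A change of scaling shifts all genes alike, so log2 fold changes relative to the median of all genes must nearly match under both scalings. With TMM these were -0.89 for Slc25a37, -0.50 for Abcb10, -0.49 for Iscu and -0.42 for Slc25a38. They were -0.28 for Glrx5, -0.24 for Abcb6, -0.18 for Tmem14c and 0.081 for Slc25a28. From the lowest log2 fold change of the 12306 genes tested, Abcb10 ranked 567, Iscu 581 and Slc25a38 738. Further along were Glrx5 at 1394, Abcb6 at 1639 and Tmem14c at 2373. Slc25a28 ranked 8177, on the far side of the median gene.

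**Figure D3:**
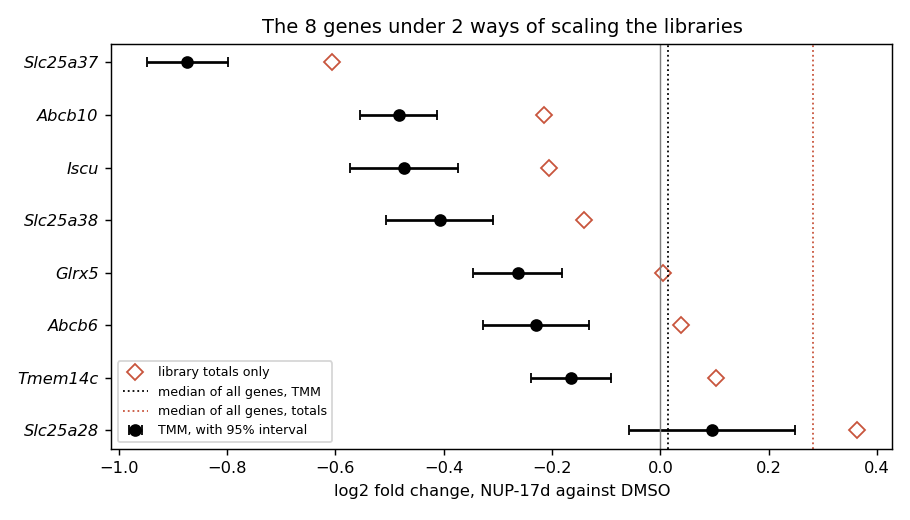
Log2 fold change of NUP-17d against DMSO (horizontal axis) for the 8 genes, with filled points and 95% intervals for TMM and open diamonds for library totals alone. Dotted lines mark the medians of all genes under the respective scaling (0.014 and 0.28). With TMM, 7 genes lie left of the matching line and Slc25a28 lies right of it. The same holds by library totals, since all genes shift alike.

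Per length of transcript, Slc25a37 was by far the highest of the 8, at 463 ± 7.31 FPKM with DMSO and 305 ± 3.67 FPKM with NUP-17d (SD, n = 3), ranking between 113 and 118 and between 182 and 190 among all listed genes. Glrx5 followed at 271 and 272 FPKM and Iscu at 148 and 129 FPKM. Abcb10 at 121 FPKM and Tmem14c at 117 FPKM did not differ beyond their spread with DMSO, and with NUP-17d Tmem14c at 126 FPKM lay level with Iscu and above Abcb10 at 105 FPKM. Slc25a38 and Abcb6 shared the next place at 25.9 and 25.3 FPKM with DMSO, and with NUP-17d they stood at 23.6 and 26.0 FPKM. Slc25a28 was last at 8.50 and 10.8 FPKM. FPKM values follow library totals, so they are read here for levels between genes and not for the effect of NUP-17d.

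The change was next set beside that of the mitochondrion at large. Counts with TMM in this and the later lists are to be read beside all genes tested, of which 18.9% were lower and 16.4% higher. Of 30 nuclear-coded mitochondrial body genes (enzymes of the citric acid cycle, outer membrane pores, import machinery and chaperones) 8 were lower and 0 higher, with a median log2 fold change of -0.063. The count fell to 5 without DMSO replicate 1 and to 4 without DMSO replicate 3. Among the 8, the chaperonin Hspd1 was at -0.28 (-0.012 by library totals, adjusted p = 0.766), the pore protein Vdac3 at -0.22 (0.051) and the import subunit Timm17a at -0.28 (-0.0081, adjusted p = 0.916). By library totals 27 of the 30 were higher and 0 lower. Inside each library, the 7 lower genes fell relative to the mean log2 level of these 30 without overlap between the groups, by a log2 difference from -0.81 for Slc25a37 to -0.10 for Tmem14c, and Slc25a28 differed by 0.16 with overlap. These are scale-free comparisons with a smallest possible exact permutation p of 0.1. The share of all tested genes that separated from these 30 in this way was not counted. When the libraries were scaled on these 30 genes, 7 of the 8 genes were still lower and 0 higher, where 39.8% of all genes passed, 12.7% lower and 27.1% higher.

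Of 43 other SLC25 carriers, the family of the iron and glycine carriers, 38 could be tested. Of these, 5 were lower and 4 higher, with a median of 0.061, beside 18.9% lower and 16.4% higher among all genes tested. By library totals 29 were higher and 2 lower, and scaled on the mitochondrial body genes 9 were higher and 3 lower. The lower ones included Slc25a39, which is known to import glutathione into mitochondria, at 824 and 552 CPM (log2 fold change -0.58, edgeR adjusted p = 1.59e-11), the NAD carrier Slc25a51 at -0.42 and the pyrimidine nucleotide carrier Slc25a36 at -0.32, the last of which by library totals was at -0.055 (adjusted p = 0.272). The other 2 lower ones, Slc25a53 at -0.51 and Slc25a21 at -0.20 (-0.24 and 0.069 by library totals, where neither passed), were picked out after their values were seen. So were the 4 higher ones, Slc25a23 at 0.43, Slc25a1 at 0.19, Slc25a11 at 0.16 and Slc25a45 at 0.16. The mean FPKM of Slc25a53 did not reach 1, so the limma fits left that gene out. Without DMSO replicate 1, DMSO replicate 3 or NUP-17d replicate 2, and with DESeq2, 3 carriers in place of 5 were lower, since Slc25a53 and Slc25a21 did not pass, and Slc25a45 did not pass with DESeq2, without a filter or in 5 of the 6 fits that left out a replicate. Slc25a40, the near relative of Slc25a39, was at 9.06 and 9.98 CPM (log2 fold change 0.14, adjusted p = 0.259). By library totals Slc25a39 was at -0.31 and Slc25a40 at 0.40 (adjusted p = 0.000553). In this paralog pair, as in Slc25a37 and Slc25a28, 1 gene was lower and its relative did not pass with TMM. Slc25a37, at -0.87, was below all 38.

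The other genes of mitochondrial iron-sulfur assembly numbered 17, of which 8 were lower and 1 higher, with a median of -0.13. By library totals 4 were lower and 8 higher, with a median of 0.14, and with scaling on the mitochondrial body genes 5 were lower and 1 higher. The largest fall was that of Isca1, an A-type carrier of the late part of assembly, from 579 ± 18.0 to 331 ± 2.48 CPM (SD, n = 3), a log2 fold change of -0.81 (SE 0.035, edgeR adjusted p = 5.87e-16), which by library totals was -0.54. Bola3, which works with Glrx5 and Nfu1 in passing on clusters, was at -0.47 (adjusted p = 4.68e-07), and the co-chaperone Hscb, which docks on Iscu, at -0.40 (adjusted p = 3.52e-07). Nfu1, named after its value was seen as the only higher gene, was at 0.16 (adjusted p = 0.0262), and its call was lost with DESeq2 (adjusted p = 0.108) and without DMSO replicate 1, DMSO replicate 3 or NUP-17d replicate 3 (log2 fold changes of 0.12, 0.17 and 0.10).

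The core complex around Iscu gave a mixed picture. Nfs1, the cysteine desulfurase that supplies sulfur, was at 30.5 and 29.1 CPM (log2 fold change -0.065, edgeR adjusted p = 0.469). By library totals Nfs1 was higher, at 0.20 (edgeR adjusted p = 0.0087). Its small partner Lyrm4 was lower, at -0.22 (adjusted p = 0.00247), but turned to 0.046 by library totals. The ferredoxin Fdx2, listed as Fdx1l, was at 0.043 (adjusted p = 0.786) on 8.03 and 8.27 CPM, with a 95% interval of -0.17 to 0.26, and was higher by library totals at 0.31 (adjusted p = 0.0128).

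Downstream, the cytosolic assembly genes moved little. Of 11, 1 was lower, Ciao1 of the targeting complex, at -0.16 (adjusted p = 0.0121, and 0.10 by library totals), and its call was lost with DESeq2 (adjusted p = 0.0683), with scaling on the mitochondrial body genes and without DMSO replicate 3. Its partners Fam96b and Mms19 were at -0.14 and 0.097 and did not pass, though Mms19 was higher by library totals at 0.36 (adjusted p = 3.01e-06). Scaled on the mitochondrial body genes, Mms19 also passed as higher, at 0.16 (edgeR adjusted p = 0.0173). By library totals 9 of the 11 were higher and 0 lower. Of 27 proteins that carry iron-sulfur clusters, 8 were lower and 2 higher, with a median of -0.027, beside 18.9% lower and 16.4% higher among all genes tested. Scaled on the mitochondrial body genes, 4 were lower and 4 higher. With TMM the lower ones were 4 without DMSO replicate 3, and 5 without DMSO replicate 2 and without NUP-17d replicate 2. They were also 5 with DESeq2, and by library totals 19 were higher and 0 lower. Ndufs1 of respiratory complex I was at -0.25 (0.021 by library totals) and the ribosome recycling factor Abce1 at -0.18 (0.091 by library totals). The higher pair was Sdhb of complex II at 0.20 and, named after its value was seen, the aconitase Aco1, whose cluster-free form is an iron sensor, at 0.23.

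All 8 heme synthesis enzymes were lower, with a median of -0.61, and by library totals 7 were lower and 1 higher. Ferrochelatase (Fech), which inserts the iron and sits in a complex with Slc25a37 and Abcb10, went from 1872 to 1123 CPM (log2 fold change -0.74, edgeR adjusted p = 1e-14), and Alas2 went from 4441 to 2625 CPM (-0.76). Relative to the mean of these 8 enzymes inside each library, Slc25a37 was still lower, by a log2 difference of -0.32 without overlap. Abcb10 and Iscu differed from the enzymes by 0.065 and 0.076 with overlap, which with 3 against 3 libraries does not show that they changed equally. The other 5 genes were less lowered than the enzymes, by 0.14 for Slc25a38 up to 0.64 for Slc25a28, without overlap. The median gene, at 0.014, was also less lowered than the enzymes, so this is not particular to the 5. The share of all tested genes without overlap was not counted.

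Of 22 genes of iron delivery and heme handling, 21 (all but Ftmt) were listed in the libraries, and 11 were lower and 3 higher, with a median of -0.20. By library totals 6 were lower and 10 higher. Fam210b, a protein tied to mitochondrial iron import, went from 136 to 76.9 CPM (log2 fold change -0.82, adjusted p = 2.75e-15), and Tfrc, the transferrin receptor that takes iron into the cell, from 2209 to 1534 CPM (-0.53). Tspo2, an erythroid relative of the translocator protein Tspo, was at -0.54, and Abcb8, an ABC transporter linked to mitochondrial iron, was at 0.10 (adjusted p = 0.311) and, by library totals, higher at 0.37 (adjusted p = 0.000262). The 3 higher genes, picked out after their values were seen, were the ferritin chains Ftl1 at 0.30 and Fth1 at 0.13, which store iron and whose many near-identical copies make their counts uncertain, and the heme exporter Flvcr1 at 0.19. Ftl1 passed in every setting tried, but Fth1 did not pass without DMSO replicate 2, DMSO replicate 3 or NUP-17d replicate 2, and Flvcr1 did not with DESeq2 or without DMSO replicate 1 or NUP-17d replicate 2. Without NUP-17d replicate 2, only 1 of the 21 was thus higher.

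**Figure D4:**
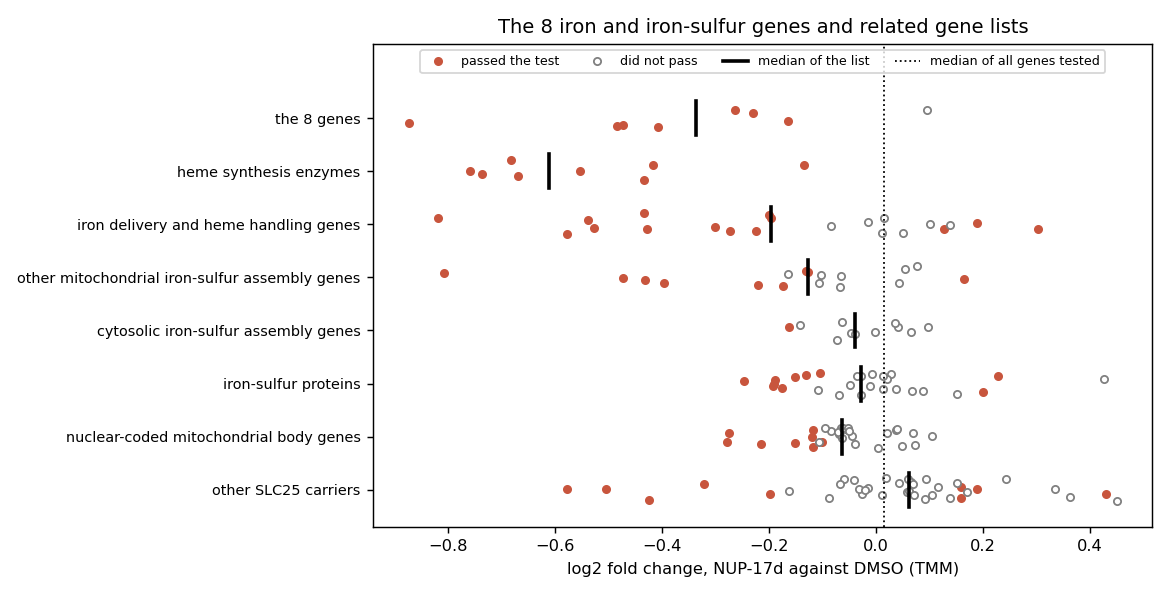
Log2 fold change with TMM (horizontal axis) of the 8 genes and of 7 related lists (rows, spread vertically by chance for legibility), with filled points for genes that passed the test, open points for the others, a bar for the median of the list and a dotted line for the median of all genes (0.014). The medians run from -0.61 for the heme synthesis enzymes and -0.34 for the 8 genes to 0.061 for the other SLC25 carriers, and under library totals alone every point moves right by about 0.27.

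Erythroid markers moved with these changes. All 10 were lower with TMM (9 lower and 0 higher by library totals), with a median of -0.67, and their summed level was 18845 to 20347 CPM with DMSO and 11505 to 12172 CPM with NUP-17d. Inside each library Slc25a37 was lower than the mean of these markers by a log2 difference of -0.26 without overlap. The remaining 7 genes were less lowered than the markers, by 0.13 for Abcb10 up to 0.70 for Slc25a28, without overlap except for Iscu. The median gene, at 0.014, was less lowered than the markers too, and the share of all tested genes without overlap was not counted. In bulk samples, fewer erythroid cells and less of an RNA in each cannot be told apart. Of the other markers, granulocyte genes summed to 4000 to 4180 and 4099 to 4378 CPM with DMSO and NUP-17d (3 of 10 higher, 1 lower), and macrophage genes to 645 to 704 and 695 to 769 CPM (2 of 10 higher, 2 lower). Megakaryocyte genes summed to 440 to 478 and 509 to 534 CPM (5 of 8 higher, 1 lower), and stem and progenitor genes to 305 to 310 and 316 to 333 CPM (3 of 7 tested higher, 0 lower). Mast cell and basophil genes summed to 209 to 226 and 186 to 192 CPM (1 of 5 tested higher, 2 lower), with Mcpt4 listed in no library. The part of these cell types in the changes of the 8 genes was not tested.

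The genes whose pattern over the 6 libraries came nearest to that of the most lowered pair of the 8 were found from the distance between log2 CPM values centred on the DMSO mean. Nearest to Slc25a37 were Xpo7 (log2 fold change -0.85, distance 0.0239), Ube2l6 (-0.90, distance 0.0252) and D5Ertd579e (-0.86, distance 0.0260). Nearest to Abcb10 were Rnf11 (-0.48, distance 0.0129), Fam126a (-0.49, distance 0.0150) and Rhag (-0.48, distance 0.0158), the last of which is also in the list of erythroid markers. These are root-mean-square log2 distances, and the 6 libraries share the depth and the contrast that make up the pattern.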

How the data were processed

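RNA-Seq of 3 DMSO and 3 NUP-17d samples was analysed, grouped by the labels. The authors deposited a table per library with expected counts, not normalized, and FPKM values, which carry no correction for library composition. Genes without reads are left out of a table and were taken as 0. The submitters' processing notes name mm10. Aligner and counter are not given in the sources used here. The paper names a stranded Illumina kit and the labels a DNBseq protocol, so use of strand in counting is unknown and reads of overlapping genes may be shared.

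Expected counts were rounded and tested with edgeR 4.0.16 in R 4.3.3 (filterByExpr, TMM, quasi-likelihood test, Benjamini-Hochberg adjustment over all genes, threshold 0.05). The common biological coefficient of variation was 2.95%. Replicates of a group differed by more than counting noise (chi-square of 1.80 to 4.41 per degree of freedom). The genes and lists were chosen with earlier results of these data known, so no p-value of the fit was adjusted over a list alone, and only ratios inside libraries were adjusted among themselves. Genes named beyond the 8 were set partners, the 3 with the lowest p in each list, and the 3 nearest in pattern to the most lowered pair, and some genes so chosen are not reported here. Coordinates are those of RefSeq on GRCm38.p6. Alternatives were DESeq2 1.42.0, limma 3.58.1 on log2 FPKM with a pseudocount of 1 or 0.1 (genes whose mean FPKM reached 1), library totals, no filter, removal of hemoglobin genes, a replicate block, leaving out each replicate and, chosen after seeing the data, scaling on mitochondrial body genes. On simulated counts with log2 changes of 0.5 among 12224 genes, edgeR recovered 156 of 196 with 4 false calls. Every simulated gene had the common coefficient of variation, and the composition of the libraries was not shifted. The simulation therefore does not test the choice of scaling.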

Additional observations from a re-analysis of the deposited data

How the results depend on the processing

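With DESeq2, no filter, hemoglobin genes removed, the replicate block, scaling on mitochondrial body genes and each replicate left out in turn, 7 of the 8 genes were lower and 0 higher. By library totals, limma on log2(FPKM + 1) and limma on log2(FPKM + 0.1), 4 were lower and 2 higher in each. In that order Slc25a28 passed at 0.36, 0.31 and 0.34, Abcb6 turned to 0.038, 0.039 and 0.040, Tmem14c to 0.10, 0.11 and 0.11, and Glrx5 to 0.0041, 0.0078 and 0.0078. The construction of these settings, which follow library totals, shifts all genes upward together. In the same order Nfs1 turned to 0.20, 0.20 and 0.21, Lyrm4 to 0.046, 0.048 and 0.049, Ciao1 to 0.10, 0.10 and 0.11, Fam96b to 0.12, 0.12 and 0.13, Ndufs1 to 0.021, 0.019 and 0.020, Abce1 to 0.091, 0.092 and 0.094, and Vdac3 to 0.051, 0.055 and 0.056. Calls gained there, at the values by totals, were Abcb8 (0.37), Fdx1l (0.31), Slc25a40 (0.40), Mms19 (0.36) and, with its change of sign, Nfs1 (0.20). Calls lost in the same direction were Hspd1 (-0.012), Timm17a (-0.0081) and Slc25a36 (-0.055). Both held under all 3 settings, and there Abce1, lower with TMM, passed as higher. Fam96b passed as higher with limma but not by totals. Genes called were then 9115, 8494 and 8480 (higher 8458, 7895 and 7880, lower 657, 599 and 600) in place of 4346, with 9, 10 and 10 cytosolic assembly genes, 19, 21 and 21 iron-sulfur proteins, 27, 27 and 27 mitochondrial body genes and 31, 28 and 28 other SLC25 carriers. DESeq2 called 1276 genes higher in place of 2019 and 0 cytosolic assembly genes (cause not tested). Scaling on mitochondrial body genes called 3341 higher and put Nfs1 at 0.00076. It gained the call of Mms19 (0.16) and lost that of Ciao1 (-0.097).

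Leaving out each replicate gave 3713 to 4008 calls among all genes, 0 to 1 cytosolic assembly genes and 6 to 10 iron-sulfur proteins (lowest of both without DMSO replicate 3), and 4 to 7 mitochondrial body genes (5 without DMSO replicate 1, 4 without DMSO replicate 3). Log2 fold changes of the 8 genes then ran from -0.90 to -0.86 for Slc25a37, 0.038 to 0.15 for Slc25a28, -0.43 to -0.38 for Slc25a38, -0.50 to -0.46 for Abcb10, -0.27 to -0.17 for Abcb6, -0.18 to -0.15 for Tmem14c, -0.51 to -0.40 for Iscu and -0.30 to -0.22 for Glrx5. The log2 ratio of Slc25a37 to Slc25a28 ran from -1.0 to -0.87, and Fdx1l turned to -0.0021 without DMSO replicate 2 and to -0.056 without NUP-17d replicate 2. Same-numbered replicates did not deviate together (correlations 0.057, -0.0046 and -0.0032). This gives no sign that the number pairs the samples, but with 3 samples per group it does not exclude pairing. With the number as a replicate block 4543 genes were called, of which 4329 were among the 4346. No call of the 8 genes or of the 31 other genes named by a set rule changed. At these depths Slc25a28, Fdx1l and Slc25a40 had the largest SE (0.075, 0.10 and 0.092) among the 8 genes and these 31. Genes picked out after their values were seen, such as Slc25a53, are not in this ranking.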
